A study of Mus musculus with 12 samples.

Results

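The collagen genes of the mouse lung were followed over 4 ages by RNA sequencing of whole tissue. The members are the protein-coding genes whose symbol is Col, a type number, the letter a and a chain number, which gave 44 of the 55487 genes of the deposited count table. The lungs came from C57BL/6NCr mice, an inbred C57BL/6 substrain, aged 6, 12, 20 or 30 months (written 6M, 12M, 20M or 30M). Each age had 3 libraries, with no treatment or engineered allele named in the labels. Libraries are named here by age and replicate number, as in 20M_222. The labels do not state whether each library came from its own animal. The p-values rest on the spread between libraries, which may in part be technical. Of the 44 genes, 33 had enough counts to be tested and 11 did not. By the structure that their proteins form, 11 genes encode fibrillar collagens, 6 basement membrane collagens and 27 other collagens.

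Collagens are extracellular proteins built of chains wound into a triple helix, each chain carrying a repeat in which glycine stands at regular intervals. Fibrillar collagens assemble into the cross-linked fibrils that give the airway wall, the vessels and the alveolar septa their tensile strength, and they are made mainly by fibroblasts and smooth muscle cells. Type IV collagen forms instead a flexible network, the scaffold of basement membranes, on which the alveolar epithelium and the capillary endothelium of the lung sit back to back. The remaining collagens decorate fibrils, form beaded filaments, anchor epithelia, or stay in the plasma membrane.

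Libraries held 12152066 to 15058628 counts, and collagen genes took 0.216% to 0.438% of them. Levels are given as TMM-scaled counts in 1e+06 counts of a library (CPM), and levels of different genes are compared only as CPM per kilobase of annotated exon. That length joins all annotated exons of a gene over all its transcripts, so it can exceed the length of the transcripts present. Ranks, shares and ratios per kilobase depend on it. Lung markers were abundant throughout: the lowest level of Sftpc, the surfactant gene of alveolar type 2 cells, was 10377 CPM. In 3 libraries, 20M_221, 20M_222 and 30M_220, the level of all genes relative to the 6M mean increased with the GC content of the gene, with rho across genes of 0.368, 0.475 and 0.335. In 12M_208 that rho was 0.234, and in the other 8 libraries it lay between -0.0888 and 0.0529. One library, 20M_222, also held 3301 CPM of 7 skeletal muscle genes, against at most 41.0 in any other library. Values without 20M_221, 20M_222 and 30M_220 are given for some of the genes, beside the result or in the section on processing.

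Type IV collagen dominated the collagen transcripts of the lung. Col4a2 and Col4a1, the chains of the ubiquitous basement membrane network, led with 72.3 ± 20.6 and 72.1 ± 23.7 CPM per kilobase (mean and SD over 12 libraries). Next came Col6a1, a chain of the beaded filaments around cells, at 37.7 ± 8.44, and Col3a1, the fibrillar collagen of elastic tissues, at 24.0 ± 6.48. They were followed by Col4a3 (20.2 ± 4.64) and Col4a4 (18.6 ± 2.86), chains of another type IV network found in the alveolar basement membrane. The chains of type I collagen, the main collagen of most fibrils, stood at 17.3 ± 8.56 for Col1a1 and 16.5 ± 4.81 for Col1a2. Most ranks are loose, since 27 of the 32 neighbouring pairs in the order of the tested genes were closer than the larger of their SDs. The 6 basement membrane genes together held 52.6% of the summed collagen level per kilobase, the 11 fibrillar genes 18.7% and the 6 beaded filament genes 14.9%.

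**Figure D1:**
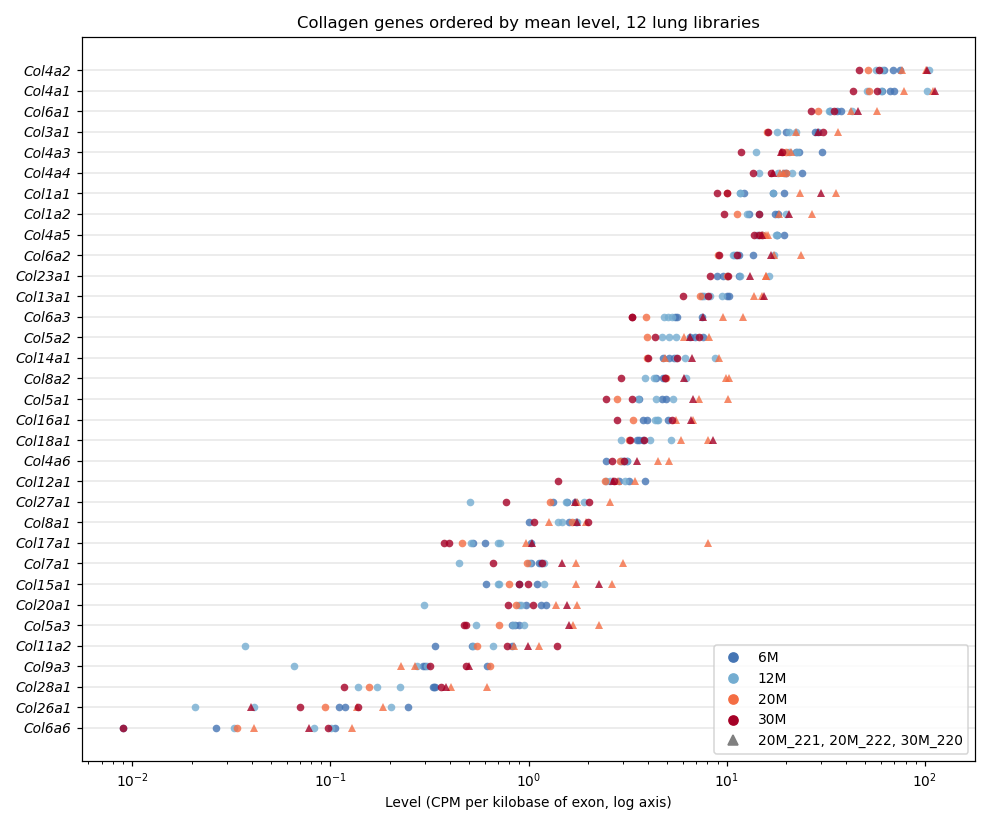
Level of the 33 tested collagen genes in CPM per kilobase of exon (log axis), 1 point per library coloured by age, with triangles for 20M_221, 20M_222 and 30M_220. Genes are ordered by mean level, from Col4a2 at 72.3 to Col6a6 at 0.0621, and the points of the 4 ages intermingle, with the triangles often on the right.

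The 11 collagens left untested reached at most 22 counts in any library. They include chains of cartilage fibrils (Col2a1, Col9a1, Col9a2 and Col11a1) and Col10a1, the collagen of hypertrophic cartilage. The others were Col6a4, Col6a5, Col19a1, Col22a1, Col24a1 and Col25a1. Col9a1 had no count in any library, which allows up to 0.0190 CPM (3 counts over all libraries together, counting error only). Of the cartilage markers Acan, Sox9, Matn1, Matn3, Cnmd, Hapln1 and Snorc, 1 had counts in every library, and their sum lay between 1.06 and 2.99 CPM.

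No tested collagen gene passed the threshold between ages in the main test, edgeR's quasi-likelihood test with Benjamini-Hochberg adjustment over all 18407 tested genes. At 30M against 6M, 0 of 33 were called, where 1.96% of all tested genes were, and the lowest adjusted p was 0.229. At 20M against 6M the count was 0 of 33 (background 0.0163%), and at 12M against 6M 0 of 33 (background 0%). Over the 4 ages together it was 0 of 33 (background 1.11%), and for a linear slope per month 0 of 33 (background 2.68%). At an unadjusted p under 0.05, edgeR gave 3 genes at 30M (Col4a3, Col4a4, Col12a1; 11.6% of all genes) and 4 at 20M (Col8a2, Col4a6, Col17a1, Col15a1; 7.8%). It gave 0 at 12M (3.6%), 4 on the slope (Col4a3, Col4a4, Col4a5, Col12a1; 13.3%) and 2 over the 4 ages (Col8a2, Col17a1; 11.2%). DESeq2 also called 0 in each of the 5 tests. Limma voom with quality weights called 3 over the 4 ages (Col8a2, Col4a6 and Col5a3; background 9.01%) and 2 higher at 20M (Col8a2 and Col4a6; background 1.91%), and 0 in the other 3 tests. With 3 libraries per age the power was limited: on simulated counts for 30M against 6M, the edgeR test recovered 24 of 67 genes changed 2-fold (35.8%) and 43 of 66 changed 4-fold (65.2%). The changed genes were drawn at random from all tested genes, without shifts shared between genes of a library. Collagens varied more within 30M than all tested genes (median range 2.13-fold against 1.47-fold), which may make these shares too high for collagens. Levels were not matched either, and 21 of the 33 collagens were above 10 CPM in every library. The shares may therefore not hold for collagens.

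Class by class, the median log2 fold change at 30M against 6M was -0.025 for the 8 tested fibrillar genes, -0.13 for the 6 basement membrane genes and 0.041 for the 19 others, beside 0.0028 for all tested genes. Across all 33 the values split into 19 above 0 and 14 below. At 20M the median over the 33 was 0.29, with 25 above 0 and 8 below, and at 12M it was -0.14, with 13 above and 20 below. The comparisons share their 6M libraries, so these medians are not independent of one another. In the 20M group, 2 of the 3 libraries are 20M_221 and 20M_222. Without 20M_221, 20M_222 and 30M_220, the medians at 30M were -0.34 for fibrillar, -0.39 for basement membrane and -0.23 for other collagens. Without 30M_220 alone they were also -0.34, -0.39 and -0.23, so this shift rests on 1 library.

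**Figure D2:**
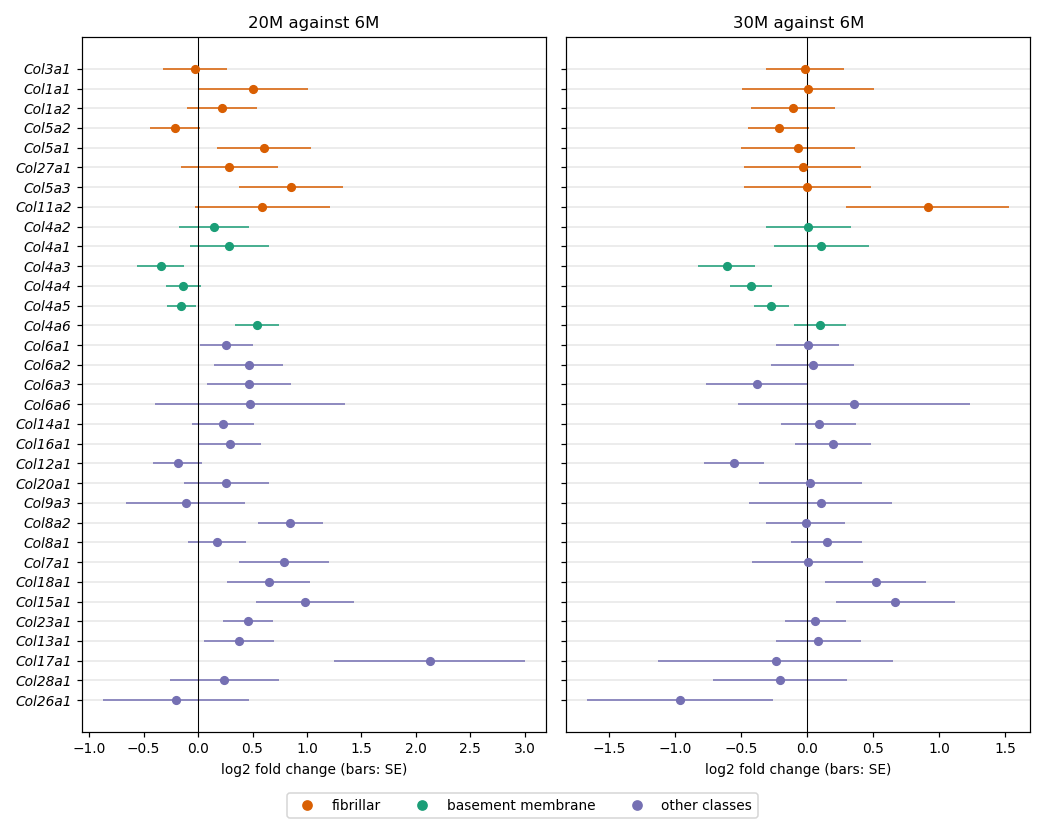
Log2 fold change of the 33 tested collagen genes at 20M and 30M against 6M (points) with the standard error of the edgeR fit (bars), coloured by class. At 30M, Col4a3, Col4a4 and Col12a1 lie at -0.61, -0.42 and -0.55, and at 20M most points lie right of 0.

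Among basement membrane collagens, the ubiquitous and the alveolar chains are described in turn, since they form separate networks. Positions are those of the deposited table, on GRCm38. Col4a1 (ENSMUSG00000031502, chromosome 8, 11198423 to 11312826) stood at 452, 499.9 and 525 CPM in the 6M libraries, 382, 447 and 765 at 12M, 392, 587 and 823 at 20M and 429, 323 and 837 at 30M. The high values are those of 12M_208, 20M_222 and 30M_220, and each later age overlapped with 6M. Its log2 fold change at 30M was 0.11 (SE 0.360, adjusted p = 0.960, edgeR), and without 20M_221, 20M_222 and 30M_220 it was -0.39. Col4a2, whose product joins with that of Col4a1, stood at 413, 460.3 and 496 CPM at 6M, 376, 402 and 698 at 12M, 341, 508 and 668 at 20M and 387, 307 and 683 at 30M. Its lowest library was 30M_218 and its highest 12M_208, each later age overlapped with 6M, and the fold change at 30M was 0.0083 (SE 0.322, adjusted p = 0.996, edgeR). Both have annotated starts that overlap by 22 bases on opposite strands, and the use of strand in counting is not given in the sources used here. The 6 endothelial markers (Pecam1, Cdh5, Cldn5, Kdr, Tek and Emcn) summed to 3233 CPM in 12M_208, 2508 in 20M_222 and 2856 in 30M_220. In 20M_221 the sum was 2475, and at 6M it was 1775 to 2103. The part of these markers in the Col4a1 and Col4a2 levels was not tested.

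Col4a3 (ENSMUSG00000079465, chromosome 1, 82586921 to 82722059) encodes a chain of the network that also holds the products of Col4a4 and Col4a5 and that loses its function in Alport syndrome, a hereditary basement membrane disease. It stood at 230.2, 224 and 303 CPM at 6M, 226, 205.5 and 141 at 12M, 198, 189 and 210.1 at 20M and 189.7, 118 and 188 at 30M. All 3 libraries of 20M and of 30M lay below all 3 of 6M, whereas 12M overlapped with 6M. Its fold change at 30M was -0.61 (SE 0.214, adjusted p = 0.229, edgeR), and its slope was -0.0217 log2 units per month (SE 0.00835, adjusted p = 0.238, edgeR). Without 20M_221, 20M_222 and 30M_220 the fold change was -0.71, and with each library left out in turn it ran from -0.73 to -0.42, the smallest without 30M_218.

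Col4a4, its neighbour (ENSMUSG00000067158, chromosome 1, 82448423 to 82586849), stood at 211, 207.8 and 255 CPM at 6M, 226, 194 and 154 at 12M, 212, 198 and 204 at 20M and 177, 144 and 182 at 30M. At 30M the libraries again lay below those of 6M without overlap, with a fold change of -0.42 (SE 0.159, adjusted p = 0.282, edgeR). Col4a5, the X-linked partner chain, stood at 120.0, 102 and 131 CPM at 6M, 121, 119 and 95.4 at 12M, 102, 106 and 108 at 20M and 98.2, 91.9 and 102 at 30M. The 6M and 30M libraries overlapped, with a fold change of -0.27 (SE 0.133, adjusted p = 0.472, edgeR). In all, 3 of the 33 tested collagens (9.09%) were lower at 30M than at 6M without overlap, the other being Col12a1, beside 8.66% of all tested genes. None was higher without overlap, against 9.89% of all genes. In bulk tissue, fewer cells of a type and less RNA per cell cannot be told apart. The 6 alveolar type 1 markers (Ager, Hopx, Aqp5, Pdpn, Rtkn2 and Clic5), all counted in each library, were followed beside them. Their sum was 5501 to 6713 CPM at 6M, 5880.3 to 6630.4 at 12M, 4108 to 5512 at 20M and 3769.8 to 5388 at 30M. At 30M against 6M, 0 of 6 were called by edgeR, DESeq2 or voom and 4 had an unadjusted p under 0.05 in edgeR (background 11.6%). On the slope, 0 of 6 were called by edgeR or voom and 2 by DESeq2, with 5 at an unadjusted p under 0.05 in edgeR (background 13.3%). The part of these cells in the Col4a3 and Col4a4 values was not tested.

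The levels of Col4a3 and Col4a4 went together over the libraries, and the genes start 71 bases apart on opposite strands, so the bases between their starts are shown, with the upstream bases of the X-linked pair Col4a5 and Col4a6, whose starts lie 1308 bases apart. The sequences are RefSeq's for GRCm38.p6, whose promoter table holds 35 of the 44 genes (not Col1a1, Col2a1, Col4a3, Col5a2, Col9a3, Col12a1, Col14a1, Col22a1 and Col26a1). Each is read 5′ to 3′ on the strand of the gene named first. The stretch shared by Col4a4 and Col4a3 thus runs from the Col4a3 start towards the Col4a4 start. Capitals mark matches to any of 3 promoter motifs, the TATA box (TATAAA), the CCAAT box and the GC box (GGGCGG), searched on both strands.
Col4a4 to Col4a3, chr1:82586850-82586920, minus strand: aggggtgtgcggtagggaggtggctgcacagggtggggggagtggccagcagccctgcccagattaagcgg
Col4a5, chrX:141475285-141475384, plus strand: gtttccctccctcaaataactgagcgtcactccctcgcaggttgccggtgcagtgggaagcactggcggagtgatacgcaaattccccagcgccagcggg
Col4a6, chrX:141474077-141474176, minus strand: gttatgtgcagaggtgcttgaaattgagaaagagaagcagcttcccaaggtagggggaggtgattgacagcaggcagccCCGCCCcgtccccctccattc

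The 71 bases between Col4a4 and Col4a3 hold none of the 3 motifs, nor do the 100 bases before Col4a5, and the 100 before Col4a6 hold 1 GGGCGG on the opposite strand. Of 32851 promoters in the table, 20.7% hold GGGCGG, 13.3% CCAAT and 4.41% TATAAA in a window of 71 bases, and 24.7%, 18.9% and 5.56% in 100 bases. The stretch between Col4a4 and Col4a3 has a GC content of 69.0%, against 61% before Col4a5 and 57% before Col4a6.

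Col4a6, which pairs with Col4a5 in the basement membranes of smooth muscle, is described by its own values. It stood at 24.3, 19.6 and 24.9 CPM at 6M, 25.1, 23.3 and 23.7 at 12M, 23.0, 40.8 and 36.1 at 20M and 21.05, 24.2 and 28.1 at 30M. The high libraries were 20M_221 and 20M_222, and the fold change at 20M was 0.54 (SE 0.198, adjusted p = 0.638, edgeR). Voom gave 0.72 (adjusted p = 0.0419), while without 20M_221, 20M_222 and 30M_220, which leaves 1 library at 20M, it was -0.0022. The 6 smooth muscle markers (Acta2, Myh11, Tagln, Cnn1, Des and Actg2) summed to 713, 1015 and 729 CPM in those 3 libraries, against 307 to 615 in the other 9, and their part in the Col4a6 values was not tested.

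The balance of the alveolar to the ubiquitous chains, taken as the ratio of Col4a3 to Col4a1 per kilobase, was 0.381, 0.335 and 0.433 at 6M, 0.443, 0.345 and 0.138 at 12M, 0.378, 0.241 and 0.191 at 20M and 0.331, 0.273 and 0.169 at 30M. All 30M values were below the 6M values, the gap between the nearest of them being small beside the spread, and no test was run on this ratio. The lowest values, in 12M_208, 30M_220 and 20M_222, belong to the libraries in which Col4a1 was high.

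**Figure D3:**
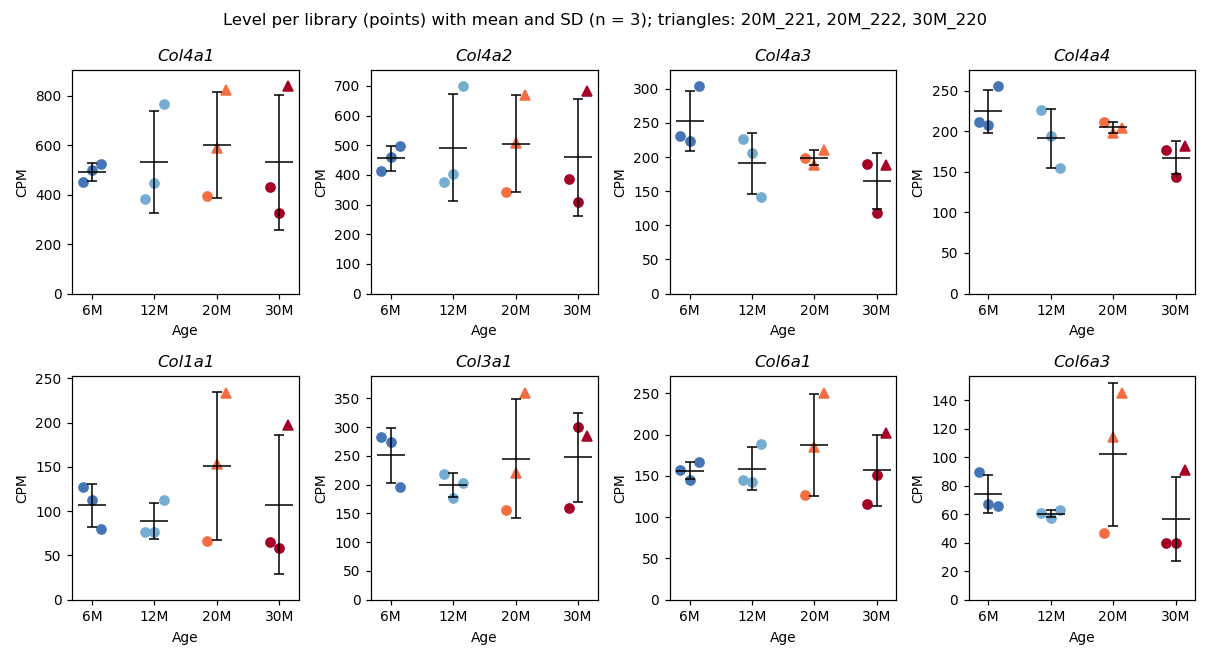
Level in CPM of 8 collagen genes by age, 1 point per library with the mean and SD of 3 libraries (bars), with triangles for 20M_221, 20M_222 and 30M_220. Col4a3 and Col4a4 are lower in all 3 libraries of 30M than in those of 6M, while Col1a1 and Col6a3 separate the triangles from the remaining libraries of the same age.

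Fibrillar collagens spread widely between libraries of the older ages. Col1a1 (ENSMUSG00000001506, chromosome 11, 94936224 to 94953042) stood at 128, 113 and 79.9 CPM at 6M, 76.8, 77.0 and 113 at 12M, 66.2, 154 and 234 at 20M and 65.7, 58.4 and 198 at 30M. Within 20M and 30M the libraries 20M_221, 20M_222 and 30M_220 were high, and the remaining library or libraries were below all of 6M. The fold change at 30M was 0.0087 (SE 0.502, adjusted p = 0.997, edgeR). It was -0.78 both without those 3 libraries and without 30M_220 alone. Col1a2, the other chain of type I collagen, had means of 201.4 ± 35.4 CPM at 6M and 187 ± 68.5 at 30M and a fold change of -0.11 (SE 0.320, adjusted p = 0.954, edgeR). Without 20M_221, 20M_222 and 30M_220 that fold change was -0.41. Col3a1 stood at 282, 274 and 196 CPM at 6M, 219, 177 and 202.1 at 12M, 156, 220.1 and 359.7 at 20M and 159, 299.5 and 285 at 30M. Its ages overlapped, with 30M_218 as high as 30M_220, and its fold change was -0.017 (SE 0.293, adjusted p = 0.993, edgeR).

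Type V collagen sits in the core of type I fibrils and sets their diameter. Its chain Col5a1 ran from 20.97 CPM in 30M_216 to 86.1 in 20M_222, with a fold change at 30M of -0.069 (SE 0.435, adjusted p = 0.982, edgeR). Without 20M_221, 20M_222 and 30M_220 that fold change was -0.60. Col5a2 had a narrower range, 38.2 to 78.0 CPM, and a fold change of -0.21 (SE 0.231, adjusted p = 0.833, edgeR), which was -0.031 without 30M_216 and -0.37 without 30M_218. Its 12M libraries, at 48.9, 53.3 and 45.4 CPM, lay below those of 6M, at 66.4, 73.2 and 62.3. At 12M, 4 of 33 collagens were lower without overlap (Col5a2, Col6a3, Col20a1 and Col28a1; 12.1%, background 5.81%) and 1 was higher (Col14a1; 3.03%, background 6.3%). Col11a2, a minor fibril chain known mainly from cartilage, had the largest absolute fold change of the fibrillar class at 30M, 0.91 (SE 0.618, adjusted p = 0.669, edgeR). It stood at 2.31, 5.70 and 3.56 CPM at 6M, 3.61, 4.55 and 0.253 at 12M, 3.77, 7.75 and 5.83 at 20M and 5.32, 9.60 and 6.85 at 30M. The 6M and 30M libraries overlapped, and 12M_208 was the lowest of all. Summed per kilobase, the fibrillar class was at 72.5 ± 12.7 at 6M, 61.7 ± 5.46 at 12M, 84.0 ± 37.9 at 20M and 70.3 ± 26.4 at 30M (SD, n = 3). The 8 fibroblast markers (Pdgfra, Tcf21, Npnt, Inmt, Dpt, Pi16, Mfap4 and Slit2) were all counted in each library. They summed to 2758 to 3148 CPM at 6M, 3024 to 3863 at 12M, 2657 to 3268 at 20M and 2402 to 3154 at 30M. In 20M_221, 20M_222 and 30M_220 the sums were 2767, 2657 and 2606, and their part in the fibrillar levels was not tested. Of the 8, 0 were called at 30M against 6M by edgeR or DESeq2, 1 by voom and 2 at an unadjusted p under 0.05 in edgeR (background 11.6%). On the slope the counts were 0 by edgeR, 1 each by DESeq2 and voom and 3 unadjusted (background 13.3%).

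Type VI collagen forms beaded filaments that link cells to the surrounding matrix. Col6a1 stood at 158, 146 and 166 CPM at 6M, 145, 143 and 189 at 12M, 127, 185 and 251 at 20M and 117, 152 and 202.4 at 30M. It was lowest in 30M_216 and highest in 20M_222, the 6M and 30M libraries overlapped, and the fold change at 30M was 0.0038 (SE 0.240, adjusted p = 0.997, edgeR). Col6a2, its partner, stood at 113, 95.9 and 92.4 CPM at 6M, 90.6, 90.0 and 145 at 12M, 75.3, 144 and 197 at 20M and 76.5, 94.4 and 139 at 30M, with a fold change of 0.041 (SE 0.317, adjusted p = 0.986, edgeR). Col6a3, which encodes a long chain of that filament (ENSMUSG00000048126, chromosome 1, 90765923 to 90843971), stood at 89.5, 66.9 and 65.6 CPM at 6M, 60.7, 57.7 and 63.1 at 12M, 47.0, 114 and 145 at 20M and 39.9, 39.7 and 91.0 at 30M. The 3 libraries with the steepest GC trend were its highest, and the remaining 20M and 30M libraries its lowest. With all libraries the fold change at 30M was -0.38 (SE 0.386, adjusted p = 0.821, edgeR). Without 20M_221, 20M_222 and 30M_220 it was -0.89 (SE 0.155, adjusted p = 0.0176, edgeR), past the threshold, where 0.0467% of all genes were called lower. In the same fit the slope was -0.0374 log2 units per month. That fit has 2 libraries at 30M and 1 at 20M, which is assumed to vary like the other groups. With all libraries the slope was -0.00477 (adjusted p = 0.953, edgeR). With 1 library of 30M left out, the fold change at 30M was -0.90 without 30M_220 (adjusted p = 0.362), -0.19 without 30M_216 (0.910) and -0.18 without 30M_218 (0.920), and the slope was -0.0145, 0.00641 and 0.00685.

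Fibril-associated collagens bind the surface of fibrils. Col12a1 stood at 59.3, 48.8 and 43.7 CPM at 6M, 39.3, 47.0 and 37.4 at 12M, 37.2, 43.3 and 52.7 at 20M and 40.9, 21.6 and 40.9 at 30M. The 30M libraries lay below those of 6M, the lowest being 30M_218, and the fold change was -0.55 (SE 0.226, adjusted p = 0.337, edgeR). Without 30M_218 it was -0.31, and without 20M_221, 20M_222 and 30M_220 it was -0.69. Col14a1 was at 36.0, 33.6 and 38.1 CPM at 6M, 43.4, 39.1 and 61.3 at 12M, 27.9, 34.1 and 64.5 at 20M and 39.5, 28.0 and 46.9 at 30M. Its 12M libraries lay above those of 6M, those of 20M and 30M overlapped with them, and the fold change at 30M was 0.089 (SE 0.286, adjusted p = 0.959, edgeR). Col16a1 (18.8 to 45.6 CPM), Col20a1 (1.52 to 9.06 CPM) and Col9a3 (0.253 to 2.46 CPM) completed the tested members of this class.

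Among the network-forming collagens, Col8a2, a chain of the short type VIII collagen found in vessel walls, stood at 21.3, 19.6 and 21.9 CPM at 6M, 19.2, 17.4 and 28.1 at 12M, 22.2, 46.3 and 44.4 at 20M and 22.01, 13.1 and 27.2 at 30M. It was the 1 collagen higher at 20M than at 6M without overlap (3.03%, background 7.77%), as Col4a3 was the 1 lower (background 7.58%). The fold change at 20M was 0.85 (SE 0.299, adjusted p = 0.638, edgeR), voom gave 1.005 (adjusted p = 0.0411), and without 20M_221, 20M_222 and 30M_220 it was 0.077. The high values are those of 20M_221 and 20M_222, with 20M_213 just above the highest 6M library. Col8a1, the other chain, stood at 13.7, 12.5 and 7.84 CPM at 6M, 11.6, 11.03 and 13.8 at 12M, 13.01, 9.94 and 15.4 at 20M and 8.31, 15.7 and 13.7 at 30M, where all later ages overlapped with 6M, and had a fold change at 30M of 0.15 (SE 0.268, adjusted p = 0.917, edgeR).

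Col17a1, a transmembrane collagen of the hemidesmosomes of basal epithelial cells, stood at 6.19, 3.63 and 3.15 CPM at 6M, 3.08, 4.30 and 4.22 at 12M, 2.77, 5.81 and 48.4 at 20M and 2.26, 2.38 and 6.27 at 30M. The highest value by far was that of 20M_222. In the same library Krt5, a keratin of basal cells, was at 186 CPM, against at most 2.59 elsewhere and 0 in 20M_221. The 5 basal cell markers (Krt5, Krt14, Krt15, Trp63 and Ngfr) summed to 364 CPM in 20M_222 and to 1.75 to 14.9 elsewhere, and 3 of 5 had counts in each library. Their part in the Col17a1 value was not tested. The fold change of Col17a1 at 20M was 2.13 (SE 0.876, adjusted p = 0.638, edgeR), and without 20M_222 it was -0.0074. At 30M it was -0.24 (SE 0.891, adjusted p = 0.964, edgeR). Col7a1, which forms the anchoring fibrils under stratified epithelia, stood at 11.9, 10.6 and 11.6 CPM at 6M, 10.4, 12.3 and 4.56 at 12M, 10.1, 17.9 and 30.9 at 20M and 6.77, 12.1 and 15.3 at 30M. It was also highest in 20M_222, and lowest in 12M_208, with a fold change at 30M of 0.0041 (SE 0.420, adjusted p = 0.998, edgeR). The other transmembrane collagens, Col23a1 and Col13a1, ran from 47.1 to 94.3 and from 27.8 to 70.9 CPM.

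Col15a1 and Col18a1, the multiplexins, sit at basement membranes, and cleavage of the Col18a1 product yields endostatin. Col15a1 stood at 7.02, 5.70 and 3.88 CPM at 6M, 4.51, 4.46 and 7.60 at 12M, 5.08, 11.002 and 16.8 at 20M and 6.29, 5.66 and 14.4 at 30M, and Col18a1 at 24.7, 26.5 and 25.5 at 6M, 22.5, 41.4 and 56.3 at 20M and 26.8, 22.9 and 60.0 at 30M. Both genes had their 3 highest values in 20M_221, 20M_222 and 30M_220, and in the remaining 20M and 30M libraries Col15a1 stayed within the range of 6M. The fold change of Col15a1 was 0.98 (SE 0.450, adjusted p = 0.638, edgeR) at 20M and 0.67 (SE 0.451, adjusted p = 0.666, edgeR) at 30M. Without those 3 libraries it was -0.13 and 0.11. Col26a1 and Col28a1 were scarce, with highest values of 2.02 and 3.03 CPM. Col26a1 stood at 2.02, 0.908 and 0.970 CPM at 6M, 1.65, 0.168 and 0.338 at 12M, 0.770, 1.5 and 1.11 at 20M and 1.13, 0.574 and 0.323 at 30M, and its 6M and 30M libraries overlapped. The fold change of Col26a1 at 30M was -0.96 (SE 0.706, adjusted p = 0.705, edgeR), and with each library left out in turn it ran from -1.55 to -0.49, the extremes being without 30M_216 and without 6M_201.

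The collagens varied much between libraries of 1 age. The highest library of an age exceeded the lowest by a median of 1.30-fold at 6M, 1.60-fold at 12M, 2.08-fold at 20M and 2.13-fold at 30M over the 33 genes. For all tested genes the medians were 1.25, 1.42, 1.41 and 1.47. More than 2-fold separated the libraries for 4 collagens at 6M, 8 at 12M, 22 at 20M and 18 at 30M. As shares of the 33 these are 12.1, 24.2, 66.7 and 54.5%, beside 12.3, 20.6, 18.9 and 21.5% of the tested genes with counts in every library of that age, so the shares at 6M and 12M were near the background. The highest value of 23 of the 33 genes (69.7%) fell in 20M_221, 20M_222 or 30M_220, against 33.01% of all tested genes, and 12 of 33 (36.4%) were higher in all 3 of these than in the other 9, against 7.43%. Both are descriptions, with no test.

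The median log2 level of the 33 genes over the 6M mean was 0.38, 0.68 and 0.38 in 20M_221, 20M_222 and 30M_220, and -0.32, -0.38 and -0.28 in 20M_213, 30M_216 and 30M_218, the remaining libraries of these ages. Medians of all tested genes stayed between -0.0062 and 0.025. Collagen genes are rich in GC, with a median of 56.4% over the 33 against 49.7% over all tested genes, and 28 of the 33 lay above the latter. After removal of each library's trend with GC content, the medians were 0.24, 0.44 and 0.20 in 20M_221, 20M_222 and 30M_220, and -0.32, -0.38 and -0.30 in the other 3. The gap between libraries of 1 age thus narrowed without closing. The 3 libraries were also low in the 6 alveolar type 2 markers, which summed to 19683, 21326 and 18354 CPM there and to 26882 to 34949.7 elsewhere, and their part in the collagen levels was not tested.

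**Figure D4:**
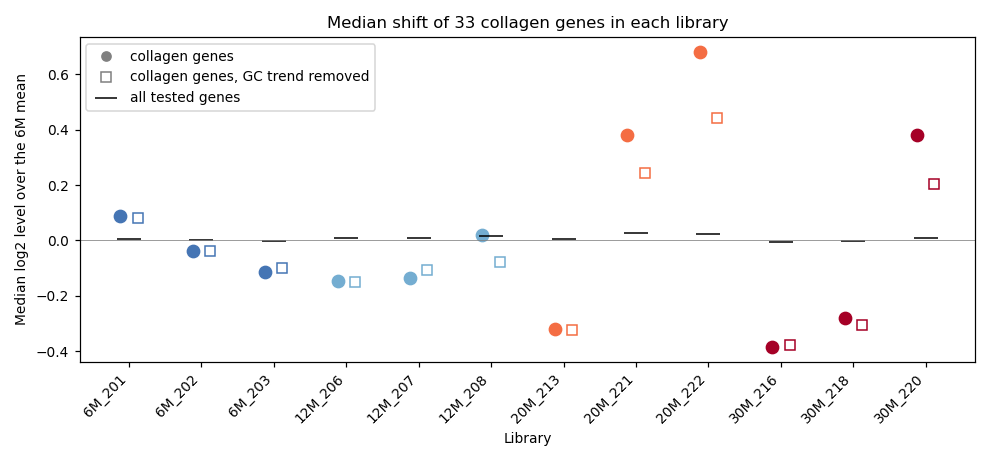
Median log2 level of the 33 tested collagen genes over the 6M mean in each library, as measured (circles) and after removal of the trend with GC content (squares), beside the median of all tested genes (bars). At 20M and 30M the libraries fall on both sides of 0, from -0.38 in 30M_216 to 0.68 in 20M_222.

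Chains that join in 1 molecule were compared over the 12 libraries in 9 pairs, on log2 CPM. Col4a1 and Col4a2 gave r = 0.989 and rho = 0.972 (adjusted permutation p = 4.5e-05 and 9e-05), and r = 0.989 over the 9 libraries other than 20M_221, 20M_222 and 30M_220. Without the 2 libraries farthest from the median, r was 0.987. Their ratio per kilobase ran from 0.901 to 1.09. Col4a3 and Col4a4 gave r = 0.960 and rho = 0.874 (adjusted permutation p = 4.5e-05 and 0.00124), r = 0.966 over the 9 libraries and 0.904 without the 2 farthest, with a ratio of 0.874 to 1.27. For Col4a4 and Col4a5 the values were r = 0.835 and rho = 0.818 (adjusted permutation p = 6.48e-04 and 0.00292), with r = 0.836 over 9 libraries and 0.749 without the 2 farthest. Col4a5 and Col4a6 gave r = 0.104 and rho = 0.420 (adjusted permutation p = 0.846 and 0.198), which missed the threshold, with r = 0.461 over 9 libraries and 0.198 without the 2 farthest.

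Outside type IV, Col6a1 and Col6a2 gave r = 0.958 and rho = 0.923 (adjusted permutation p = 6e-05 and 1.8e-04), with r = 0.892 over 9 libraries and 0.927 without the 2 farthest. Col1a1 and Col1a2 gave r = 0.891 and rho = 0.867 (adjusted permutation p = 1.35e-04 and 0.00124), with r = 0.798 and 0.807. The type I helix holds more Col1a1 than Col1a2 chains, and the transcript ratio per kilobase of Col1a1 to Col1a2 ran from 0.609 in 30M_218 to 1.45 in 30M_220. Col6a2 and Col6a3 gave r = 0.856 and rho = 0.776 (adjusted permutation p = 6.9e-04 and 0.00705), but r = 0.570 over 9 libraries (adjusted permutation p = 0.167) and 0.880 without the 2 farthest. Col5a1 and Col5a2 gave r = 0.627 and rho = 0.559 (adjusted permutation p = 0.0384 and 0.0803), and r = 0.541 over 9 libraries (adjusted permutation p = 0.170). Without the 2 farthest, 20M_222 and 30M_216, r was 0.368, so its size depended on the libraries included. On deviations from the age means, r was 0.816. Col8a1 and Col8a2 gave r = -0.0198 and rho = 0.0420 (adjusted permutation p = 0.954 and 0.905), with r = -0.278 over 9 libraries and -0.173 without the 2 farthest. Libraries that are high in many collagens at once enter each of these values.

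**Figure D5:**
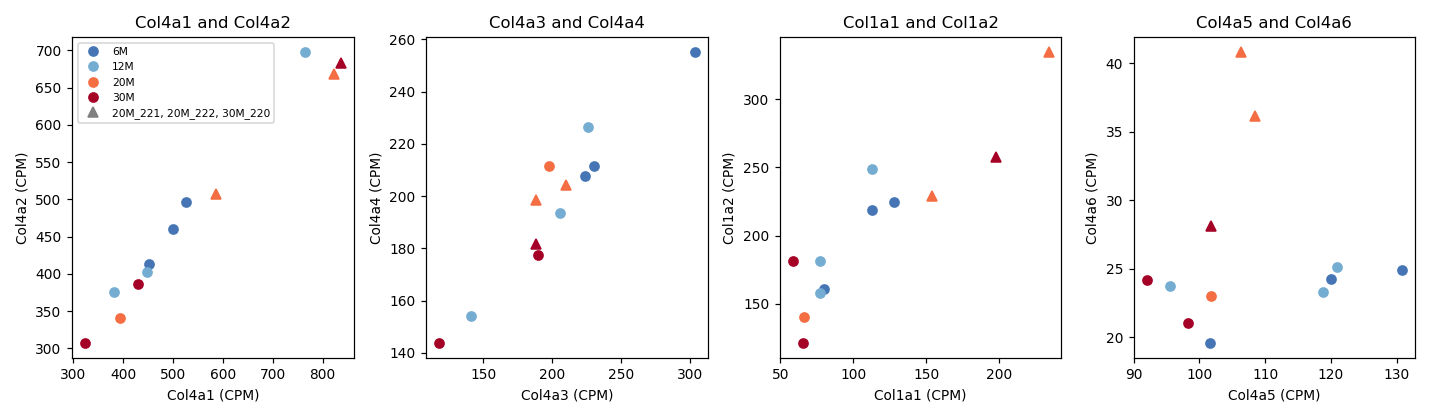
Levels in CPM of chain partners, 1 point per library coloured by age, with triangles for 20M_221, 20M_222 and 30M_220. Col4a1 with Col4a2 (r = 0.989) and Col4a3 with Col4a4 (r = 0.960) lie near a line, whereas for Col4a5 and Col4a6 (r = 0.104) the 3 triangles are the highest in Col4a6 only. The axes do not start at 0.

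The genes that make, process and bind collagen were examined beside it, in 6 lists. For their counts at an unadjusted p under 0.05 in edgeR, the shares of all tested genes were 11.6% at 30M and 13.3% on the slope. In folding and modification in the endoplasmic reticulum, 0 of 19 were called by edgeR at 30M against 6M (3 at an unadjusted p under 0.05, 0 by DESeq2 or voom) or on the slope (4 unadjusted, 1 each by DESeq2 and voom). Plod2, the lysyl hydroxylase of telopeptides, was at 99.5, 119 and 117 CPM at 6M and 78.7, 74.1 and 61.7 at 30M, without overlap, with a fold change of -0.65 (SE 0.201, adjusted p = 0.160, edgeR). P4ha1, a subunit of the prolyl 4-hydroxylase that stabilises the helix, had -0.59 (SE 0.249, adjusted p = 0.370, edgeR). In propeptide cleavage, 0 of 7 tested genes were called by any of these tools at 30M or on the slope, and 0 at an unadjusted p under 0.05. Pcolce2, an enhancer of that cleavage, had -0.22 (SE 0.196, adjusted p = 0.787, edgeR). In crosslinking, 0 of 5 were called by any of the 3 tools, with 1 at an unadjusted p under 0.05. The lysyl oxidases Loxl3 and Lox had 0.53 (SE 0.188, adjusted p = 0.245, edgeR) and -0.49 (SE 0.290, adjusted p = 0.593, edgeR). Of 9 tested fibril-binding proteins 0 were called by any of the 3 tools, with 1 at an unadjusted p under 0.05. Fn1, fibronectin, was at 187, 175 and 140.5 CPM at 6M and 227, 181 and 387 at 30M, with a fold change of 0.66 (SE 0.258, adjusted p = 0.306, edgeR). Without 30M_220, its highest 30M library, the fold change was 0.28, and without 20M_221, 20M_222 and 30M_220 it was 0.29. Sparc, a collagen-binding matricellular protein, had -0.28 (SE 0.164, adjusted p = 0.599, edgeR).

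Of 9 collagen receptors, edgeR called 2 as higher at 30M against 6M, where 1.96% of all tested genes were called in either direction. It called the same 2 on the slope (background 2.68%). DESeq2 and voom each called 3 receptors at 30M and 2 on the slope. The shares of all genes that these 2 tools called are not given here, so their counts cannot be read against edgeR's shares. Lair1, an inhibitory receptor of leukocytes, was at 8.88, 6.44 and 7.19 CPM at 6M and 31.1, 26.0 and 22.6 at 30M, with a fold change of 1.82 (SE 0.327, adjusted p = 0.0129, edgeR). It missed the threshold without 6M_202 (adjusted p = 0.0785) or 6M_203 (0.0905), and its slope was called with each library left out. Gp6, the collagen receptor of platelets, was at 1.12, 1.82 and 0.566 CPM at 6M and 5.64, 4.92 and 6.21 at 30M, with 2.25 (SE 0.475, adjusted p = 0.0282, edgeR), and lost its call on leaving out any 1 of the 6M or 30M libraries (adjusted p = 0.0504 to 0.173). The slope call of Gp6 was lost without 6M_203, 30M_216, 30M_218 or 30M_220 (adjusted p = 0.0566 to 0.0911), without 20M_221, 20M_222 and 30M_220 together (0.0598), and with age as log2 months (0.0682). The 7 leukocyte markers (Ptprc, Cd52, Coro1a, Laptm5, Cd3e, Cd79a and Csf1r) summed to 484 to 708 CPM at 6M and 1151 to 1166 at 30M. Of these 7, edgeR called 4 as higher at 30M against 6M (background 1.96%) and 4 on the slope (background 2.68%). DESeq2 called 6 in each of these tests, and voom 5 at 30M and 6 on the slope, again without a share of all genes beside them. The part of these markers in the receptor levels was not tested. Among 6 genes of collagen breakdown, edgeR, DESeq2 and voom each called 1 on the slope (edgeR background 2.68%). The edgeR call was Mmp13, an interstitial collagenase, at 1.12, 0.413 and 1.21 CPM at 6M and 21.9, 3.44 and 2.07 at 30M. Its slope was 0.1496 log2 units per month (SE 0.0319, adjusted p = 0.0221, edgeR). Without 30M_216 it was 0.0670 (adjusted p = 0.119), and without 6M_202 the adjusted p was 0.0577. The slope call was also lost with no count filter (adjusted p = 0.0666) and with age as log2 months (0.105). At 30M against 6M its fold change was 3.29 (SE 0.802, adjusted p = 0.0602, edgeR). Without 30M_216, the library at the highest level, it was 1.57 (adjusted p = 0.206), and voom did not call it either (adjusted p = 0.0878). DESeq2 called it (adjusted p = 0.000581), as did edgeR without 30M_220 (0.0161), without 20M_221, 20M_222 and 30M_220 (0.0303) and with the GC trend removed (0.0489). Ctsk, a lysosomal collagenase, had -0.13 (SE 0.152, adjusted p = 0.855, edgeR).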

How the data were processed

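The members and gene lists were chosen with earlier results of these data known. The authors deposited raw counts, whole numbers of reads for each gene, made from poly-A selected RNA read as pairs on an Illumina platform, per the labels' protocols. The submitters' processing notes name HISAT2 2.1.0, featureCounts, Trimmomatic 0.38 and FastQC 0.11.7, with the build GRCm38 (mm10). No annotation release or strand setting is given in the sources used here. Counts of overlapping genes are therefore uncertain.

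CPM (counts scaled to 1e+06) used TMM factors, and exon length and GC content came from GENCODE M21, which holds 55141 of the 55487 genes and all 44 collagens. Genes were tested in R 4.3.3 with edgeR 4.0.16 (quasi-likelihood, robust, filterByExpr by age), all 12 libraries in 1 fit. The SE is the absolute log2 fold change over the root of the F statistic. Genes with a Benjamini-Hochberg adjusted p below 0.05 are called. Shares of all genes called are those of edgeR, and of voom only over the 4 ages and at 20M. Other counts by DESeq2 and voom, also for marker and gene lists, have no background here. Alternatives were DESeq2 1.42.0, limma 3.58.1 voom with quality weights, DESeq2 size factors, other count filters and age scales, removal of the GC trend (lowess span 0.3), only the 2 ages compared, and fits without 20M_221, 20M_222 and 30M_220 or without each library. Correlations used 100000 permutations, two-sided, adjusted over the 9 pairs. The edgeR test was tested on simulated counts for 18407 genes. No 2 libraries of 1 age were duplicates (chi-square per gene 6.79 to 53.0). Counting floors cover counting error only.

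Members given library by library are the 6 of highest level per kilobase, their chain partners, and in each class the one with the largest absolute fold change at 30M. Other chain pairs, members past an unadjusted threshold and Col14a1 and Col18a1 were added after their values were seen, some by mean or range only. Other genes are up to 2 per list, those of smallest slope p.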

Additional observations from a re-analysis of the deposited data

How the results depend on the processing

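The counts of called collagens were the same (0) under each alternative and with each library left out, except that voom called 3 over the 4 ages and 2 at 20M, and the fit without 20M_221, 20M_222 and 30M_220 called 1 (Col6a3) at 30M and 1 on the slope. Over the alternatives the class medians at 30M ran from -0.34 to 0.24 (fibrillar), -0.39 to -0.059 (basement membrane) and -0.23 to 0.15 (other). Fold changes at 30M that lay near 0 changed sign, and the cause was not tested. With voom, the trend with GC content removed, and those 3 libraries left out, they were -0.20, -0.023 and -0.39 for Col4a1, -0.23, -0.10 and -0.40 for Col4a2, -0.14, -0.10 and -0.22 for Col6a1, -0.10, -0.052 and -0.23 for Col6a2, -0.20, -0.10 and -0.27 for Col7a1, and -0.44, -0.14 and -0.78 for Col1a1. With no filter on counts Col6a1 and Col7a1 were at -0.0027 and -0.0028, and DESeq2 gave -0.0014 for Col7a1. Without the 3 libraries Col4a6 was at -0.019, and at 20M Col4a6, Col15a1 and Col17a1 were at -0.0022, -0.13 and -0.65. With each library left out in turn, fold changes at 30M ran from -0.78 to 0.30 (Col1a1), -0.41 to 0.12 (Col1a2), -0.18 to 0.22 (Col3a1), -0.39 to 0.36 (Col4a1), -0.40 to 0.23 (Col4a2), -0.019 to 0.19 (Col4a6), -0.60 to 0.19 (Col5a1), -0.22 to 0.17 (Col6a1), -0.23 to 0.21 (Col6a2), -0.27 to 0.26 (Col7a1), -0.058 to 0.37 (Col8a1), -0.26 to 0.23 (Col8a2), -0.37 to -0.031 (Col5a2), -0.90 to -0.18 (Col6a3), -0.70 to -0.31 (Col12a1), 0.11 to 0.90 (Col15a1), -1.55 to -0.49 (Col26a1), 0.28 to 0.87 (Fn1), 0.34 to 0.69 (Loxl3), -0.23 to -0.061 (Ctsk), 1.57 to 3.77 (Mmp13) and -0.90 to 0.11 (Col17a1). At 20M, Col17a1 ran from -0.0074 to 2.60 and Col15a1 from 0.54 to 1.29, and the slope of Col6a3 from -0.0145 to 0.00685. Of the values for single genes under alternatives, 841 kept direction and side of the threshold and 58 changed sign. A further 19 lost the call of the main fit and 8 gained a call. No paired analysis was possible because the ages share no replicate number.

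Each age had 3 libraries, with up to a 2.13-fold median range within 30M. Changes of 2-fold or less are mostly out of reach of these tests, and some 4-fold changes were missed on simulated counts. The absence of calls therefore does not show that collagen levels were equal between ages. Collagens under 1 CPM rest on few counts. Protein, fibril content and collagen turnover were not measured.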

Other observations

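The library 12M_208 held the lowest value of 5 of the 33 tested collagens (15.2%), near the 18.7% of all tested genes. These 5, named after their values were seen, were Col7a1, Col9a3, Col11a2, Col20a1 and Col27a1. Col11a2 was at 0.253 CPM there against 2.31 to 9.60 CPM in the others, and Col27a1 was at 6.59 CPM against a highest value of 33.6. The same library held the highest value of Col4a2, 698 CPM, and of Col23a1, 94.3 CPM.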
